A study of Mus musculus with 16 samples.

Results

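Basophils and mast cells are marked in bone marrow by a small set of genes, and 8 of them are described here in marrow of mice that received marrow from adrenergic receptor knockout donors. Hdc, Cpa3, Mcpt8, Prss34, Fcer1a, Ms4a2, Il3ra and Cd200r3 were taken by gene name from the array design. Each of these 8 genes had 1 probe, so the set comprised 8 of the 34650 gene names and 8 of the 55681 probes on the array.

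The 16 arrays measured total RNA of whole bone marrow, 1 array per mouse. The 8 KO chimeras were C57BL/6J mice, lethally irradiated with 950 rad, that received whole marrow of a double adrenergic receptor knockout strain carrying the Adrb1 allele tm1Bkk. The labels give the graft as a ratio of 1 to 4, knockout to C57BL/6J marrow, which, taken as written, puts C57BL/6J cells in the graft beside knockout cells, and recovery lasted 2 to 3 months. The 8 control mice were also irradiated C57BL/6J mice at 950 rad, and their labels name no donor strain although they carry the same description of the transplant. Irradiation and the C57BL/6J host were thus shared by both groups, no age is given, and what marrow the controls were given is not stated in the sources used here. The comparison asks whether basophil and mast cell transcripts differ between mice titled KO and mice titled control. The controls' labels give the same ratio of 1 to 4, so the labels do not settle whether knockout cells in the graft are what separates the groups.

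Basophils mature in the bone marrow and circulate as short-lived granulocytes, whereas mast cells leave the marrow as progenitors and mature in tissues. Both carry the high-affinity IgE receptor, whose alpha chain binds IgE and whose beta and gamma chains pass on the signal, and both release histamine and granule proteases when antigen cross-links that receptor. Interleukin-3 is a main growth factor of mouse basophils, and transcription factors of the GATA family are known to act on genes of both lineages.

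The array 75th percentile of signal, to which every level below is related, was 127 to 545 units in KO chimeras and 231 to 558 in controls. Between 27755 and 37087 probes were well above background on KO chimera arrays and between 29292 and 38743 on control arrays. A level is the log2 of a probe's signal over that percentile, so levels of different genes are not comparable, and a difference is the KO chimera mean minus the control mean in log2 units. The brighter of 2 Adrb1 probes spanned -2.99 to -2.19 in KO chimeras, with a median of -2.41, and -2.58 to -2.34 in controls, with a median of -2.51. Its difference was -0.00 ± 0.11 (SE, adjusted p = 0.999), and the dimmer probe differed by 0.95 ± 0.30 (adjusted p = 0.0277). Adrb1 was therefore not lower in the KO chimeras by either probe. The sources used here do not say which bases the allele lacks, and the labels' ratio, taken as written, leaves Adrb1 intact in the C57BL/6J cells of the graft, so these probes do not check the labels.

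Sequences are shown first for the 4 genes that were lower in KO chimeras, Hdc, Cpa3, Fcer1a and Prss34. Their promoter windows of 300 bases around the transcription start site come from RefSeq (GRCm38.p6), in which all 8 genes were matched. Capitals mark GATAA, the core of the GATA-factor motif, or TTATC where it lies on the other strand, and the 2 forms do not overlap.
Hdc, chr2:126618629-126618928, minus strand: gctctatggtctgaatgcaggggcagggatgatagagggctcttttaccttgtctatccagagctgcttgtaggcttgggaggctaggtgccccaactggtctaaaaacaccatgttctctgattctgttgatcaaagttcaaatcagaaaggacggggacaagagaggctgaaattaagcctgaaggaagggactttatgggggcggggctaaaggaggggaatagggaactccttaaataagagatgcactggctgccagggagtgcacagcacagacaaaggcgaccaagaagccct
Cpa3, chr3:20242132-20242431, minus strand: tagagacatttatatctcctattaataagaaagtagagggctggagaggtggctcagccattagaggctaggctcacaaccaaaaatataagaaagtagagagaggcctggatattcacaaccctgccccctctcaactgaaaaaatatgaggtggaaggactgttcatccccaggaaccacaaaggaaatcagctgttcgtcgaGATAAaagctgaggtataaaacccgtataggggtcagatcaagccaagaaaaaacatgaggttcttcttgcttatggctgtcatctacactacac
Fcer1a, chr1:173227180-173227479, minus strand: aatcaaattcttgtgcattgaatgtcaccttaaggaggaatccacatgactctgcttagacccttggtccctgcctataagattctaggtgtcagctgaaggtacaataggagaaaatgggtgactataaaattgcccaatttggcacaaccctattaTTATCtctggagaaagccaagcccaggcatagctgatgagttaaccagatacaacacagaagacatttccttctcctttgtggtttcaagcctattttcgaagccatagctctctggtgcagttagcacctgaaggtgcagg
Prss34, chr17:25298144-25298443, plus strand: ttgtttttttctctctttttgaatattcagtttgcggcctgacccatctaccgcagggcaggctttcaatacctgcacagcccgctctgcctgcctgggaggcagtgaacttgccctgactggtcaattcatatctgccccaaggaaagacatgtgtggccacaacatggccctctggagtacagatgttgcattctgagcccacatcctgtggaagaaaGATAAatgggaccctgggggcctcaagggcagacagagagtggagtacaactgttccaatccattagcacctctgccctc
The motif stood 45 bases before the start site of Cpa3, 92 before that of Fcer1a and 30 before that of Prss34, and these letters were not found in the Hdc window. Over all 8 genes, 5 windows held the motif on either strand, the others being those of Ms4a2 and Cd200r3, against 25.4% of the 32851 windows in the RefSeq table. A match in these windows is a description of letters and not a bound site.

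The array reads each gene through 1 oligonucleotide of 60 bases. The probes of Hdc, the gene with the largest difference of the 8, and of Mcpt8, the granule protease a basophil marker that did not pass, are given 5′ to 3′ as designed.
Hdc probe: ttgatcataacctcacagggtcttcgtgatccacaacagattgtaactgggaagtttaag
Mcpt8 probe: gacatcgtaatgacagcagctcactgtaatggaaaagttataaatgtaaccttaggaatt
The Hdc probe lies at chr2:126419516-126419575 on the minus strand of mm9, the build of the file headers. That of Mcpt8 is listed at chr14:56702300-56702674 on the minus strand, a span of 375 bases for 60 bases of probe. No exon annotation of mm9 was used here.

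Of the 8 genes, 4 were lower in KO chimeras and 0 were higher at an adjusted p under 0.05 (limma, Benjamini-Hochberg over 32690 probes). Those 4 were Hdc, which makes histamine, the granule enzymes Cpa3 and Prss34, and Fcer1a, the IgE-binding chain. Mcpt8, Ms4a2, Il3ra and Cd200r3 did not pass. The share of all tested probes called was 23.5% in either direction, 12.2% lower and 11.4% higher, and the median difference was -0.37 over the 8 genes and -0.01 over all tested probes. In 1 of the 8, Hdc, no KO chimera overlapped any control, a state reached in the lower direction by 3.28% of all tested probes and in either direction by 6.34%. All of these are values of mixed marrow RNA, in which fewer cells of a type and less RNA per cell cannot be told apart.

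**Figure D1:**
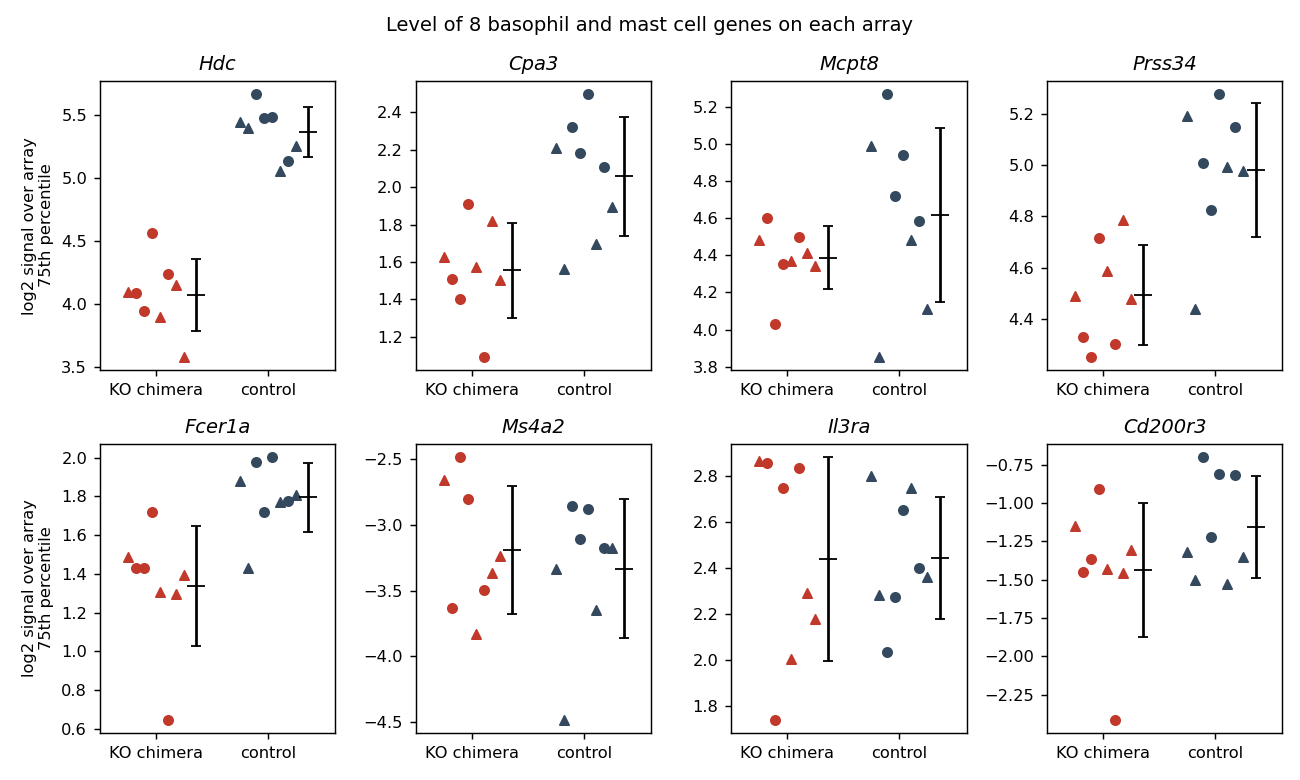
Level of each gene on every array, as log2 signal over the array's 75th percentile, with KO chimeras left and controls right in each panel; circles are arrays of scan day 1, triangles those of scan day 2, and the bar at the side is the mean ± SD of 8 mice. For Hdc all 8 KO chimeras lie below all 8 controls, and for the other 7 genes the groups overlap.

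Hdc encodes histidine decarboxylase, the enzyme that turns histidine into histamine, and in mouse marrow it is also known from immature myeloid cells. Its level was 3.58 at the lowest, 4.09 at the median and 4.56 at the highest in KO chimeras, against 5.06, 5.42 and 5.66 in controls. The highest KO chimera thus stayed below the lowest control. Hdc averaged 4.07 ± 0.28 in KO chimeras and 5.36 ± 0.20 in controls (SD, n = 8 each), a difference of -1.29 ± 0.12 (SE, 95% interval -1.55 to -1.03, adjusted p = 6.92e-07) or 0.408 times the control signal. The difference was -1.23 (adjusted p = 0.00381) among the 4 mice per group scanned on the first day and -1.35 (adjusted p = 0.00109) among those of the second. On each of the 5 slides that held both groups Hdc was lower in the KO chimeras, with differences of -1.82 to -1.10.

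Cpa3, or carboxypeptidase A3, is a metalloprotease stored in the granules of mast cells and basophils (probe at chr3:20115674-20115733, minus strand). KO chimeras had levels of 1.09 at the lowest, 1.54 at the median and 1.91 at the highest, against 1.56, 2.15 and 2.50 in controls. The groups overlapped, with 4 KO chimeras below the lowest control and all 8 below the control median. The means were 1.55 ± 0.25 in KO chimeras and 2.06 ± 0.32 in controls (SD, n = 8 each), and the difference was -0.50 ± 0.14 (SE, 95% interval -0.80 to -0.21, adjusted p = 0.0148). It was -0.80 (adjusted p = 0.0358) on the first scan day and -0.21 (adjusted p = 0.442) on the second, so the call was not met by the second day's mice alone. All 5 slides with both groups had it lower in KO chimeras, with differences of -1.001 to -0.061, and with slide as a term on those slides the adjusted p was 0.0511 at a difference of -0.48.

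Prss34 encodes a tryptase of basophil granules, also called mouse mast cell protease 11 (probe at chr17:25436942-25437001, plus strand). Its lowest, median and highest levels were 4.25, 4.48 and 4.79 in KO chimeras, against 4.44, 5.001 and 5.28 in controls. In this gene 3 KO chimeras lay below the lowest control, which was control 2. Prss34 averaged 4.49 ± 0.19 in KO chimeras and 4.98 ± 0.26 in controls (SD, n = 8 each), differing by -0.49 ± 0.12 (SE, 95% interval -0.73 to -0.24, adjusted p = 0.00558). The first scan day gave -0.66 (adjusted p = 0.0384) and the second -0.31 (adjusted p = 0.282). Of 5 slides, 4 had Prss34 lower in KO chimeras, over a range of -0.89 to 0.04.

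Mcpt8, the basophil granule serine protease used as a marker of the mouse lineage, spread less among KO chimeras than among controls. It ran over 4.03, 4.39 and 4.604 (lowest, median and highest) in KO chimeras, against 3.85, 4.65 and 5.27 in controls. All 8 KO chimeras were below the control median, yet none was below the lowest control, again control 2. The means were 4.39 ± 0.17 in KO chimeras and 4.62 ± 0.47 in controls (SD, n = 8 each). The difference of -0.23 ± 0.17 (SE, adjusted p = 0.36) did not pass, and its 95% interval of -0.59 to 0.12 still contains a decrease as large as those of Cpa3 and Prss34. It was -0.34 (adjusted p = 0.112) without control 2 and -0.14 (adjusted p = 0.584) without control 3, the lowest and the highest control, on the first scan day -0.51 (adjusted p = 0.15) and on the second 0.04 (adjusted p = 0.928).

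Fcer1a encodes the IgE-binding alpha chain of the receptor (probe at chr1:175151438-175151497, minus strand). KO chimeras had 0.65 at the lowest, 1.41 at the median and 1.72 at the highest, against 1.43, 1.79 and 2.00 in controls. The groups overlapped, with 4 KO chimeras below the lowest control. The level averaged 1.34 ± 0.31 in KO chimeras and 1.80 ± 0.18 in controls (SD, n = 8 each), a difference of -0.46 ± 0.13 (SE, 95% interval -0.72 to -0.19, adjusted p = 0.0142). KO chimera 6 stood 0.65 log2 units below the next KO chimera, and without it the difference was -0.36 (adjusted p = 0.0118). Within the scan days it was -0.56 (adjusted p = 0.174) and -0.35 (adjusted p = 0.109), neither of which passed with 4 mice per group, and it was below 0 on 5 of 5 slides.

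Ms4a2 encodes the beta chain that amplifies the receptor's signal, and its probe was the only one of the 8 not above background everywhere, lying above it on 7 of 8 arrays of each group (probe at chr19:11691701-11691760, minus strand). It spanned -3.83 to -2.48 in KO chimeras, with a median of -3.30, against -4.48 to -2.85 in controls, with a median of -3.18. The ranges of the groups overlapped over most of their length. Its means of -3.19 ± 0.49 in KO chimeras and -3.33 ± 0.53 in controls (SD, n = 8 each) differed by 0.14 ± 0.24 (SE, 95% interval -0.36 to 0.64, adjusted p = 0.72). The interval of Ms4a2 lies above the alpha chain's difference of -0.46 but overlaps that chain's interval of -0.72 to -0.19. The 2 chains were not tested against each other, and Ms4a2 lies close to background. The difference of Ms4a2 was -0.10 on the first scan day and 0.39 on the second. Fcer1g, the gamma chain that this receptor shares with other Fc receptors of myeloid cells, differed by 0.02 ± 0.09 (adjusted p = 0.924).

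Il3ra encodes the chain that binds interleukin-3, which many marrow progenitors carry besides basophils (probe at chr14:15187898-15187957, plus strand). Its lowest, median and highest levels were 1.74, 2.52 and 2.87 in KO chimeras, against 2.03, 2.38 and 2.80 in controls. KO chimeras lay on both sides of the controls' range. The means were 2.44 ± 0.44 in KO chimeras and 2.44 ± 0.27 in controls (SD, n = 8 each), with a difference of -0.00 ± 0.17 (SE, 95% interval -0.37 to 0.36, adjusted p = 0.992). It was 0.20 on the first scan day and -0.21 on the second, and neither passed.

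Cd200r3 encodes an activating receptor of the CD200 receptor family found on basophils and mast cells (probe at chr16:44957886-44957945, plus strand). The lowest, median and highest levels were -2.41, -1.40 and -0.91 in KO chimeras, against -1.53, -1.27 and -0.70 in controls. KO chimera 6 gave the lowest level and lay below every other mouse. Cd200r3 averaged -1.44 ± 0.44 in KO chimeras and -1.16 ± 0.33 in controls (SD, n = 8 each), a difference of -0.28 ± 0.18 (SE, 95% interval -0.67 to 0.11, adjusted p = 0.308), and -0.14 (adjusted p = 0.537) without KO chimera 6. The scan days gave -0.65 (adjusted p = 0.229) and 0.09 (adjusted p = 0.667).

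**Figure D2:**
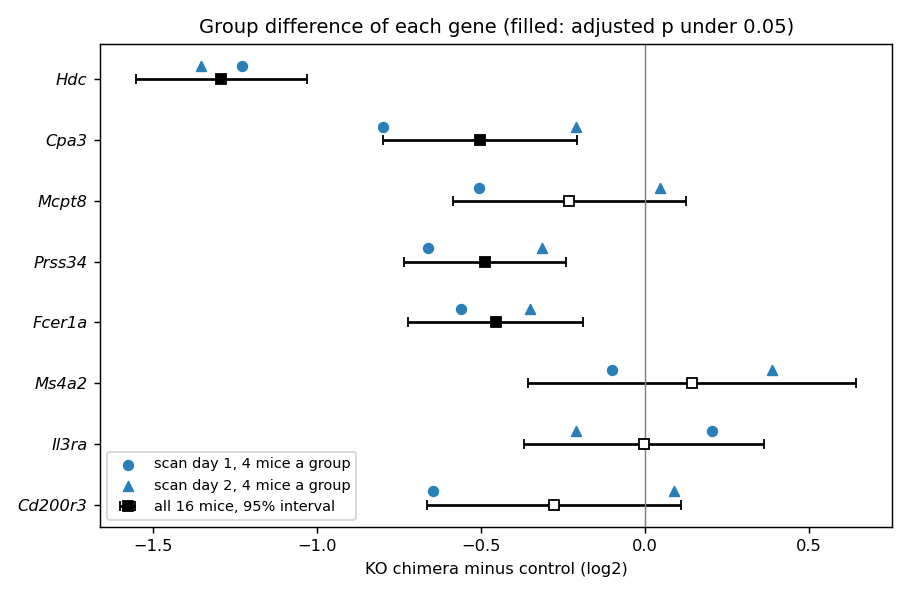
Difference of each gene, KO chimera minus control in log2 units; squares with bars are the fit over all 16 mice with its 95% interval, filled where the adjusted p was under 0.05, and circles and triangles are the differences within scan days 1 and 2 (4 mice per group each). Hdc lies near -1.29 in the fit and on both days, while Mcpt8, Ms4a2, Il3ra and Cd200r3 have their 2 scan days on opposite sides of 0.

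The 4 genes that passed on all 16 mice did not pass alike in smaller sets. Within the second scan day alone 1 of the 8, Hdc, was called, and within the first day Hdc, Cpa3 and Prss34 were. Calls over the whole array fell too, to 3454 probes on the second day and 2449 on the first, against 7696 with all 16 mice. The difference between the days was not tested. With any 1 mouse left out, the count was 4, and 6604 to 7947 probes of the array were called.

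Hdc had a larger difference than the other 3 lower genes, and the ratio of their signals within an array restates this for each mouse. This ratio was chosen after the values were seen and is given without a test, and its size has no meaning between probes, only its difference between groups. The log2 ratio of Hdc over Prss34 was -0.90 at the lowest, -0.35 at the median and -0.07 at the highest in KO chimeras, against -0.01, 0.26 and 0.96 in controls. All 8 KO chimeras lay below the lowest control, and the means differed by -0.80. Over Cpa3 the means of the ratio differed by -0.79 and over Fcer1a by -0.84, with 7 of 8 KO chimeras below the lowest control in each. These differences of means follow from those of the single genes, and Hdc alone already separated the groups, so the ratios add no separate support. How often other pairs of probes separate the groups in this way was not counted.

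**Figure D3:**
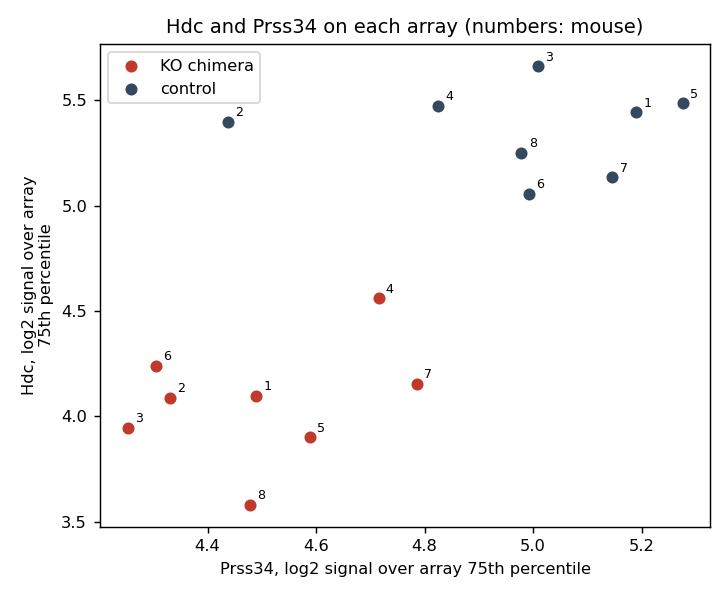
Hdc level against Prss34 level on each array, both as log2 signal over the array's 75th percentile, with the mouse number beside each point. All KO chimeras lie lower in Hdc than all controls. In Prss34 the groups share the stretch from 4.44 to 4.79, which holds control 2 and KO chimeras 1, 4, 5, 7 and 8.

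Among mice of the same group, several of the 8 genes went up and down together. After each group mean was taken out, the Pearson correlation over the 16 arrays had a median of 0.38 across the 28 pairs, a lowest value of -0.20 and a highest of 0.88, and 10 pairs lay above 0.5. These arrays share scan days, slides and the 75th percentile used for scaling, so the values describe these arrays. Fcer1a and Cd200r3 had the highest value, 0.88. Cpa3 went with Cd200r3 at 0.79, with Prss34 at 0.77 and with Fcer1a at 0.75. Hdc had 0.13 to 0.43 for its 7 pairs, and Il3ra had its 3 values below 0 with Cd200r3, Ms4a2 and Fcer1a.

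Single mice carried part of this covariation. Control 2 was the lowest control for 5 of the 8 genes, Cpa3, Mcpt8, Prss34, Fcer1a and Ms4a2, and control 3 the highest for 4. Among KO chimeras, number 4 was the highest for 4 genes, number 6 the lowest for 3, Cpa3, Fcer1a and Cd200r3, and number 3 also the lowest for 3, Mcpt8, Prss34 and Il3ra. Without control 2 the correlation of Mcpt8 with Prss34 was 0.21, against 0.54 with it, and that of Mcpt8 with Fcer1a was 0.08, against 0.32. The value for Fcer1a with Cd200r3 was 0.88 without it too. Those of Hdc without control 2 ran from 0.17 with Fcer1a to 0.51 with Cpa3. The pooled values of Mcpt8 also join unlike groups of 8 mice. Its correlation with Fcer1a was -0.25 in KO chimeras and 0.83 in controls, that with Ms4a2 was -0.58 in KO chimeras and 0.76 in controls, and that with Cpa3 was -0.01 in KO chimeras and 0.86 in controls. The difference between the groups in these correlations was not tested.

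**Figure D4:**
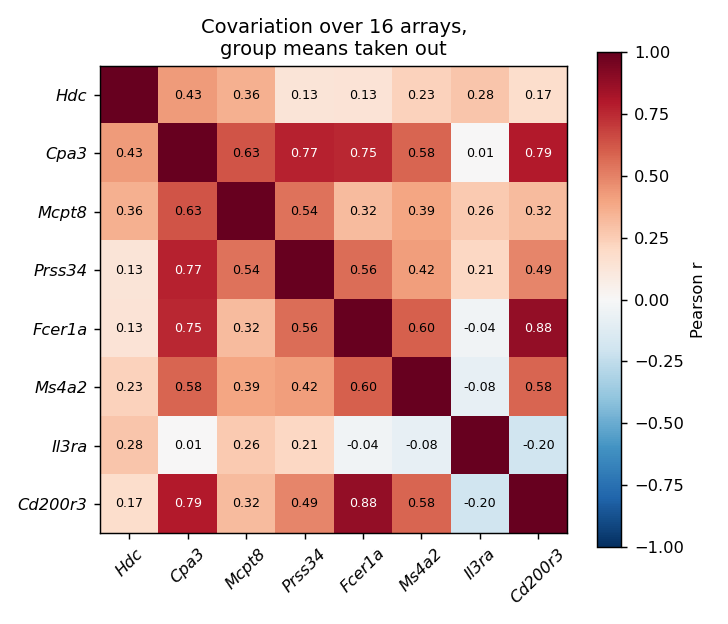
Pearson correlation of each pair of genes over the 16 arrays after the mean of each group was taken out, from -1 (blue) to 1 (red). Cpa3, Fcer1a and Cd200r3 form the block of highest values, up to 0.88, while Hdc and Il3ra have pale rows.

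Outside the 8, the genes whose levels followed the mean standardised level of the set most closely within groups were Sec11a, Atp1b3, Tob2, Ropn1l, Jtb, Tbc1d4, A830012C17Rik and Akr1b3. Their correlations over the 16 arrays were 0.83, 0.79, 0.77, 0.77, 0.77, 0.76, 0.76 and 0.74 in that order, the highest of 14235 genes compared. Picked as the highest of so many over 16 arrays, these values do not by themselves show a tie to the set. How high the top values would be by chance was not tested. Of these, 1 differed between the groups, Ropn1l, which had a mean of -1.34 ± 0.19 in KO chimeras and -0.58 ± 0.21 in controls (SD, n = 8 each) and a difference of -0.76 ± 0.10 (SE, adjusted p = 4.68e-05).

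Genes around the 8 were read by the brightest probe of each gene, and 12.1% of all 23062 genes were called lower and 10.3% higher. Other probes of a gene, which can differ, do not enter the counts. Of 22 other measured basophil genes, 6 were lower, 4 higher and 12 did not pass, with a median difference of -0.09. Gata2, a transcription factor that basophils and mast cells need, was lower at -0.56 ± 0.11 (adjusted p = 0.00153). Also lower were the cytokine gene Il4 at -0.66 (adjusted p = 0.00635) and Il1rl1, the interleukin-33 receptor, at -0.95 (adjusted p = 0.0083), with its 3 probes between -0.95 and -0.88, of which 2 passed. Il18r1, a receptor for interleukin-18, fell by 0.43 by its brightest probe, while its other probe did not pass at -0.25, and Cyp11a1, a steroid-synthesising enzyme, fell by 0.45. Itgam, the integrin CD11b of many myeloid cells, had -0.31 by its brightest probe while another of its probes was higher by 0.34. Higher were the activation marker Cd69 at 1.095 ± 0.18 (adjusted p = 3.5e-04) and the cytokine Osm at 0.75 ± 0.13 (adjusted p = 4.38e-04). Il6 at 0.65 and the chemokine receptor Ccr2 at 0.67 complete the 4. Which marrow cells the lower and the higher transcripts of this list came from was not tested. Il4, Il1rl1, Il18r1, Cyp11a1, Itgam, Il6 and Ccr2 were named after their values were seen.

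Among 16 measured mast cell genes, 5 were lower, 1 was higher and 10 did not pass, and the median difference was -0.25. This is 37.5% called, against 22.3% of all genes. By their other probes, which the count leaves out, Mitf was higher at 0.46 and Slc45a3 lower at -0.74. Kit, the stem cell factor receptor of mast cells and of marrow progenitors, averaged 0.86 ± 0.15 in KO chimeras and 1.76 ± 0.18 in controls (SD, n = 8 each), a difference of -0.90 ± 0.09 (SE, adjusted p = 1.68e-06). The protease gene Mcpt2 was above background on 5 KO chimera and 8 control arrays and differed by -1.07 ± 0.24 (adjusted p = 0.00372), a size that is uncertain because 3 KO chimera arrays had no signal well above background. Hs3st1, which modifies heparan sulfate, differed by -0.36 (adjusted p = 0.041), and Gata2 and Il1rl1 complete the 5. Maob, a monoamine oxidase, was above background on 7 KO chimera arrays and on 0 control arrays, at least 3.44-fold higher (adjusted p = 7.26e-06) against the lowest signal among probes above background. Maob met the filter on dim probes through KO chimeras alone and Mcpt2 through controls alone, the groups in which they were higher. With all 55678 probes tested and no such filter, limma gave an adjusted p of 2.26e-05 for Maob and 0.00887 for Mcpt2.

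The transcripts that define mature mast cells were only in part measurable. Cma1, a chymase, was above background on 0 KO chimera and 2 control arrays, and the receptor Mrgprb2 on 1 KO chimera and 0 control arrays. Mcpt4, another chymase, was above it on all arrays and differed by 0.59 (adjusted p = 0.0697), and the brighter probe of the tryptase gene Tpsb2 by -0.04 (adjusted p = 0.933). The basophil proteases Mcpt8 and Prss34 were above background on all 16 arrays.

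**Figure D5:**
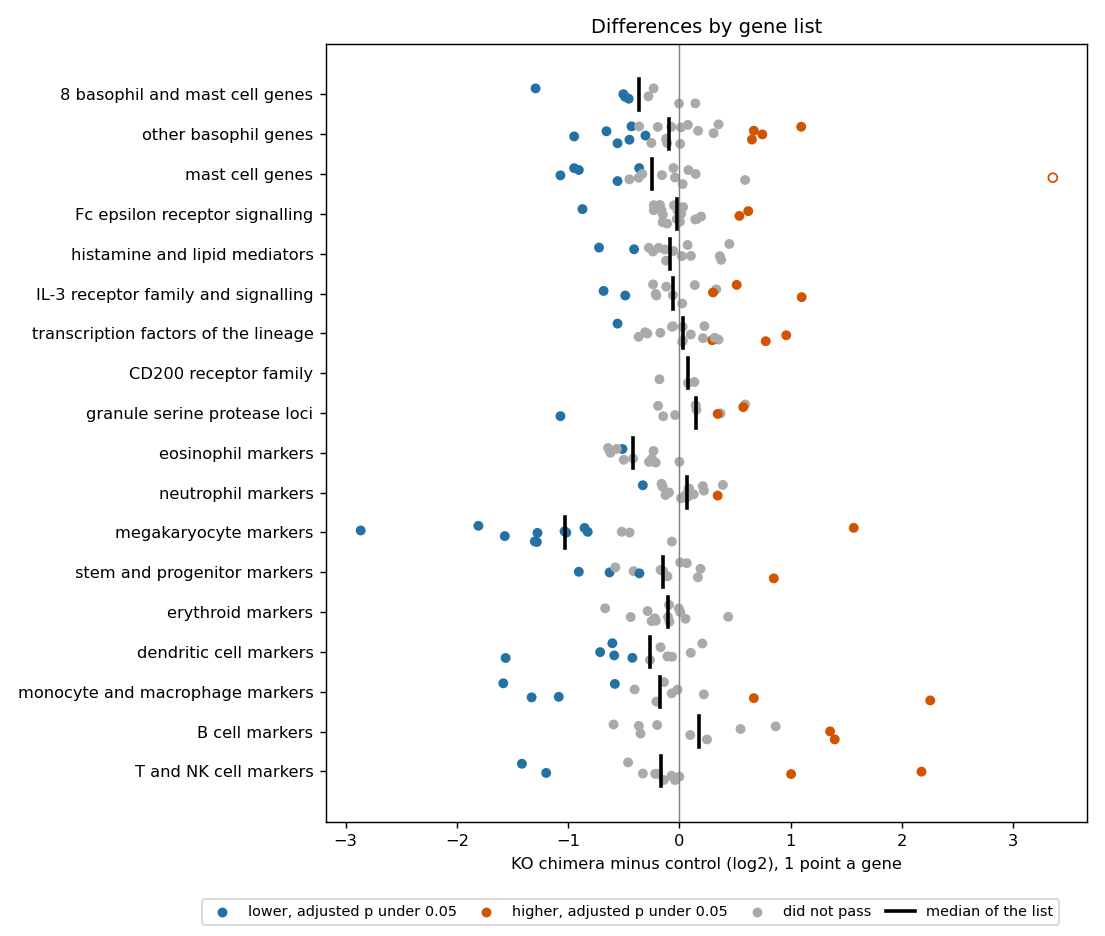
Difference of every measured gene in each list, KO chimera minus control in log2 units, 1 point per gene by its brightest probe; blue points were lower, orange points higher and grey points did not pass an adjusted p of 0.05, and a vertical bar marks the median of a list. The median was -0.37 for the 8 basophil and mast cell genes and -1.02 for megakaryocyte markers; the open circle is Maob, whose plotted size is not a measured fold because no control array was above background.

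In the signalling chain below the IgE receptor 1 of 20 genes was lower, 2 were higher and 17 did not pass, with a median of -0.02. This is 15.0% called, against 22.3% of all genes. Grap2, an adaptor protein, had -0.87 ± 0.13 (adjusted p = 1.11e-04) by its brighter probe, and its other probe did not pass at -0.40. The kinase Btk had 0.54 ± 0.10 (adjusted p = 0.00115), and Rasgrp4, a Ras activator of mast cells, had 0.62 ± 0.14 (adjusted p = 0.00463) by one probe and -0.06 by another.

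In the histamine and lipid mediator list 2 of 14 genes were lower and 0 higher, which is 14.3% called against 22.3% of all genes. Both lower genes belong to the arachidonic acid path, which was not tested as a set. Tbxas1, thromboxane synthase, differed by -0.72 ± 0.11 (adjusted p = 1.81e-04) and the phospholipase Pla2g4a by -0.41 ± 0.11 (adjusted p = 0.0109). Of the genes that handle histamine after Hdc, the vesicle transporter Slc18a2 differed by -0.05 (adjusted p = 0.771) and the histamine-degrading enzyme Hnmt by 0.36 (adjusted p = 0.0703).

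Of 13 genes of the interleukin-3 receptor family and its signalling, 2 were lower, 3 higher and 8 did not pass. This is 38.5% called, against 22.3% of all genes. With 1 mouse left out, 1 to 4 were called higher. Cish, a feedback inhibitor induced by STAT5, had -0.68 ± 0.09 (adjusted p = 4.16e-05) and the kinase Jak2 -0.49 ± 0.09 (adjusted p = 9.11e-04). The kinase Pim1 had 0.52 ± 0.11 (adjusted p = 0.00209), the cytokine Tslp 1.099 and Csf2ra, a sister alpha chain for GM-CSF, 0.30. Csf2rb, a beta chain with which Il3ra pairs, did not pass by its brightest probe at -0.12 (adjusted p = 0.634), whereas its other probe was lower at -0.44. Csf2rb2, another beta chain of mouse, did not pass at -0.21 (adjusted p = 0.341).

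Of 18 transcription factors of the lineage, 1 was lower, 3 higher and 14 did not pass, which is 22.2% called against 22.3% of all genes. Gata2 was the lower one, and Spi1 (PU.1) at 0.96 ± 0.15 (adjusted p = 1.34e-04), Bhlhe40 at 0.78 ± 0.12 (adjusted p = 1.64e-04) and Runx1 at 0.30 (adjusted p = 0.0227) were higher, the last by 1 of its 2 probes. By their other probes, which the count leaves out, Mitf was higher at 0.46 and Ikzf2 lower at -0.79. In the CD200 receptor family none of the 3 measured relatives of Cd200r3 passed, with Cd200r4 at -0.18 (adjusted p = 0.471) and the ligand Cd200 at 0.13 (adjusted p = 0.634). The 10 measured genes of the granule serine protease loci (30% called) had 1 lower, Mcpt2 with the limit given above, and 2 higher. Those 2 were Prss41 at 0.57 ± 0.11 (adjusted p = 0.00123) and Ctsg, the neutrophil granule protease cathepsin G, at 0.34 ± 0.12 (adjusted p = 0.0409). With 1 mouse left out, 1 gene of this list was called higher in 8 of the 16 fits.

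Markers of other marrow cells moved as well, and their part in the results on the 8 genes was not tested. Of 14 megakaryocyte markers, 10 were lower, 1 higher and 3 did not pass, which is 78.6% called against 22.3% of all genes. Their summed level was 23.9 to 56.9 in KO chimeras and 45.3 to 84.6 in controls, as a multiple of the array's 75th percentile. Such a sum adds signals of different probes, so the brightest probes of a list weigh most. Examples are Siglech among dendritic cell markers (control mean level 7.57) and Hba-a1 among erythroid markers (9.64). The sums are therefore not amounts of cells. The stem and progenitor list of 13 (30.8% called) had 3 lower, including Kit and Meis1, and 1 higher, Procr, with sums of 16.4 to 23.2 in KO chimeras and 21.97 to 27.96 in controls. Of 11 dendritic cell markers 5 were lower (45.5% called), among them Clec9a, with sums of 169 to 301 in KO chimeras and 193 to 227 in controls. Monocyte and macrophage markers went both ways, with 4 of 12 lower and 2 higher (50% called) and sums of 70.99 to 124 in KO chimeras and 62.9 to 90.9 in controls.

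Eosinophils and neutrophils share granule and receptor genes with basophils. Of 11 eosinophil markers 1 was lower, Siglecf at -0.51 (adjusted p = 0.0185), which is 9.09% called against 22.3% of all genes. Their median difference was -0.42, beside -0.37 for the 8 basophil and mast cell genes. The median of their summed levels went the other way, 282 in KO chimeras against 268 in controls. The eosinophil sum was 54.1 and 58.9 in KO chimeras 1 and 2 and 236 to 449 in the other KO chimeras, against 196 to 388 in controls. The same 2 mice had the highest neutrophil sums of the KO chimeras, 5293 and 5346, the highest dendritic cell sums, 263 and 301, the highest monocyte and macrophage sums, 124 and 110.3, and the lowest stem and progenitor sums, 16.4 and 18.2. Neither was the lowest KO chimera for any of the 8 genes. All these sums carry the limit given above and are not amounts of cells. Of 16 neutrophil markers 1 was lower, Cebpe at -0.33, and 1 higher, Ctsg (12.5% called), with sums of 3608 to 5346 in KO chimeras and 3930 to 4678 in controls. Mpo and Camp did not pass by their brighter probes but were higher by their others, at 1.08 and 0.47. The count of neutrophil markers called higher was 0 to 2 with 1 mouse left out, and differed from 1 in 11 of 16 fits. Among 13 erythroid markers none passed, and sums were 919 to 1682 in KO chimeras and 816 to 1606 in controls. B cell markers had 2 of 10 higher and 0 lower (20% called), with sums of 56.1 to 129 in KO chimeras and 49.3 to 131 in controls. T and NK cell markers had 2 of 12 higher and 2 lower (33.3% called), with sums of 59.1 to 86.2 in KO chimeras and 65.2 to 122 in controls.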

How the data were processed

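Bone marrow RNA of 16 mice (8 KO chimeras, 8 controls) was put on Agilent 1-colour arrays with Cy3, per the labels' protocols. The submitters' processing notes name Agilent Feature Extraction 10.7, and the file headers version 10.1.1.1. Spot intensity in the deposited files is already background-subtracted, per the file headers. The authors' log2 value table, used as an alternative, had column medians of 4.98 to 5.00 and correlated with each array's log2 signal at 0.991 or more; its centring is not stated there.

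Groups and replicate numbers came from sample titles. Levels are log2 ratios of signal to the 75th percentile of that array's 59305 non-control spots, without outlier spots and averaged over spots of a probe. A probe was tested when at least 6 of 8 arrays of either group had it well above background, which left 32690 of 55681. All 8 basophil and mast cell probes passed, 7 of them above background on every array, and 0 spots were saturated. The group comparison used limma 3.58.1 (R 4.3.3; lmFit, eBayes, two-sided, Benjamini-Hochberg, call at adjusted p under 0.05), and the fit was tested on simulated data. The number of arrays limits the precision. The labels do not say whether mice came from separate transplant cohorts, so p-values measure the spread between these 16 mice.

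The 6 slides, 5 of them with both groups, and the 2 scan days, with 4 mice per group each, were read from the file headers. The alternatives were other normalizations, background corrections and filters, the authors' values, slide and scan day as terms, single mice left out and an adjusted p under 0.01. The genes and lists were chosen with earlier results of these data known. The plan for named genes was the 8, the defining markers, the 8 genes most alike and every other count of 5 or fewer. It also took up to 3 called genes per list by smallest p, or 2 where none was called. The text does not follow it in full. Several genes so chosen among markers of other marrow cells are not printed, and others, such as Slc18a2, Hnmt and Csf2rb2, were named outside it. The second targeted receptor gene is not reported here.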

Additional observations from a re-analysis of the deposited data

Results flagged for a closer look

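Each of the 8 genes was checked in each group for 1 mouse far from the other 7 of its group, by the gap to the nearest mouse over the group's whole range. Of these 16 checks 3 stood out, and chance alone gives about 1 in 20 for a single check. The checks are not independent, since Fcer1a and Cd200r3 correlated at 0.99 among KO chimeras and both flagged the same mouse. The count of 3 is therefore not to be set against that rate. KO chimera 6 had an Fcer1a level of 0.65, with the next KO chimera at 1.30, and a Cd200r3 level of -2.41, with the next at -1.46. KO chimera 3 had a Mcpt8 level of 4.03, with the next at 4.34. Without KO chimera 6, the Fcer1a difference was -0.36 (limma, adjusted p = 0.0118).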

How the results depend on the processing

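Hdc was lower under every alternative run, at -1.39 to -1.23 with an adjusted p of 0.00381 or less, and at -1.36 to -1.22 with 1 mouse left out. The main fit called 4 of the 8 genes, 7696 probes and 61 context genes. Within scan day 1 Fcer1a did not pass (-0.56) and the calls were 2449 probes and 26 context genes. Within scan day 2 Cpa3 (-0.21), Fcer1a (-0.35) and Prss34 (-0.31) did not pass, and the calls were 1 of the 8 genes, 3454 probes and 36 context genes; fewer mice enter these fits. With slide as a term on slides holding both groups, Cpa3 did not pass (-0.48, adjusted p = 0.0511); the cause was not tested. At an adjusted p under 0.01 Cpa3 (-0.50) and Fcer1a (-0.46) did not pass, leaving 2 of the 8 genes, 4430 probes and 40 context genes. Signs turned only for genes that did not pass. These were Mcpt8 (0.045) and Cd200r3 (0.089) on day 2, Ms4a2 (-0.10) and Il3ra (0.20) on day 1, and Il3ra under quantile normalization (0.021), normexp with quantile normalization (0.049), the percentile over probes above background on all arrays (0.034), the authors' values (0.021) and slide as a random block (0.0060). With 1 mouse left out, the calls were 4 of the 8 genes, 6604 to 7947 probes and 56 to 65 context genes. The differences ran from -0.57 to -0.44 for Cpa3, -0.51 to -0.36 for Fcer1a, -0.57 to -0.45 for Prss34, -0.34 to -0.14 for Mcpt8, -0.35 to -0.14 for Cd200r3, -0.021 to 0.24 for Ms4a2 (below 0 without control 2) and -0.064 to 0.096 for Il3ra. Same-numbered mice did not deviate together (correlations -0.19 to 0.19, 2 of 8 pairs over 0.1); the replicate block called 7012 probes, 57 context genes and 4 of the 8 genes. Requiring all 8 arrays above background left Ms4a2 with no value. Ms4a2 and Cma1 lie close to background, which limits what their levels show.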
